A study of Mus musculus with 8 samples.

Results

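Inflammasome and necroptosis genes encode the machinery of 2 inflammatory forms of cell death. 10 of them, chosen by gene symbol and not by their values, were followed here out of 24860 symbols: *Il1b*, *Il18*, *Nlrp3*, *Pycard*, *Casp1*, *Casp4*, *Gsdmd*, *Ripk1*, *Ripk3* and *Mlkl*. All 10 were found in the table. They were measured by RNA sequencing in 8 libraries of mouse retina, 4 labelled AAV2-shCX36 and 4 labelled AAV2-scramble. In AAV2-shCX36 an adeno-associated viral vector delivers a hairpin RNA against connexin 36, the channel subunit of most neuronal gap junctions, and AAV2-scramble carries the control hairpin, so both groups received virus. The series title concerns the protection of neurons by blocking the gap junctions between them. The submitters label the tissue as retina and the cell type as RGCs, retinal ganglion cells, which send the eye's output to the brain. The sources used here do not give strain, age, time after injection, injury, the promoter of the hairpin or cell sorting. They tie no mouse to a library, so a p-value here reflects library-to-library spread, which may be technical.

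An inflammasome forms when a sensor such as NLRP3 recruits the adaptor PYCARD and, through it, caspase 1, which cuts the precursors of interleukins 1 beta and 18 and the pore protein gasdermin D. Caspase 4 of the mouse, also called caspase 11, senses bacterial lipopolysaccharide inside the cell and cuts gasdermin D without that platform. In necroptosis the kinases RIPK1 and RIPK3 activate MLKL, which breaks the plasma membrane. In the retina these routes are mostly studied in microglia, in infiltrating leukocytes and in injured neurons. Most of their steps are set by protein cutting, phosphorylation and assembly, which RNA levels do not measure.

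*Gjd2*, the gene of connexin 36, had 17.0, 14.0, 14.6 and 16.6 FPKM in AAV2-shCX36 libraries 1 to 4, against 38.7, 35.9, 17.4 and 18.2 FPKM in AAV2-scramble libraries 1 to 4. FPKM is a fragment number scaled by transcript length and library depth. The groups did not overlap, but the gap to AAV2-scramble 3 and 4 was small, and the difference was not called across all genes (log2 difference of -0.70 ± 0.25 SE, limma adjusted p = 0.148). Libraries held 35879483 to 38954877 fragments. Summed over 8 ganglion cell markers, libraries held 2249 to 2429 FPKM with AAV2-shCX36 and 1326 to 2342 FPKM with AAV2-scramble, and 6 rod markers summed to 748 to 1086 FPKM with AAV2-shCX36 and to 1158 to 1724 FPKM with AAV2-scramble, so transcripts of other retinal cells were present under the ganglion cell label. Of the rod markers, 4 were called lower in limma and in limma-voom, as were 3 of 8 Mueller glia markers, which summed to 370 to 588 FPKM with AAV2-shCX36 and 609 to 1001 FPKM with AAV2-scramble, and the part of these cells in the members' results was not tested. AAV2-scramble 1 and 2 stood apart from AAV2-scramble 3 and 4: their 6 oligodendrocyte markers summed to 52.0 and 160 FPKM, against 11.2 and 11.5 FPKM, and their 10 microglial markers to 997 and 947 FPKM, against 510 and 228 FPKM. In AAV2-shCX36 libraries 1 to 4 the microglial sum was 275, 277, 274 and 430 FPKM. The members' differences are therefore given with and without each pair of controls.

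Promoter sequences are shown for the 2 members whose groups did not overlap, *Il1b* and *Casp4*, for *Ripk1*, the only member with a match to an interferon motif, and for *Irgm1*, an interferon-induced GTPase shown for contrast. They come from RefSeq (GRCm38.p6), which held windows for 9 of the 10 members and none for *Gsdmd*. Each is read 5′ to 3′ and ends at or near the transcription start. Capitals mark a TATA hexamer (TATAAA) in *Il1b*, matches to a degenerate kappa B site in *Casp4*, the gamma-activated sequence (GAS, TTCNNNGAA) in *Ripk1*, and overlapping cores of the interferon-stimulated response element (ISRE; GAAA, any 2 bases, GAAA) in *Irgm1*.
Il1b (chr2:129371140-129371239, minus strand): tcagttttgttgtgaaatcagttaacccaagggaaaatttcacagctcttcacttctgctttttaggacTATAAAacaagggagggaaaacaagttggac
Casp4 (chr9:5308749-5308848, plus strand): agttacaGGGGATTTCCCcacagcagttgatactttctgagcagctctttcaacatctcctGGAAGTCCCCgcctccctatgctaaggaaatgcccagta
Ripk1 (chr13:34002754-34002873, plus strand): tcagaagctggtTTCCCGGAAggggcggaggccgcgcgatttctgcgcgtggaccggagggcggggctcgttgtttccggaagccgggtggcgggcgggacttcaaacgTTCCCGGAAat
Irgm1 (chr11:48871421-48871520, minus strand): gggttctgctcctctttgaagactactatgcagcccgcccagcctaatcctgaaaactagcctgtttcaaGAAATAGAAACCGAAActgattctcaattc

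The motifs were searched on both strands in the 250 bases before each start. GAS matches stood in the *Ripk1* window alone, 1 of 9 members, at 108 to 100 and at 11 to 3 bases before the second of its 2 RefSeq starts, which lies 511 bases inside the gene. The window of the first start, at the 5′ end of the annotated gene, held no match. Over all RefSeq symbols, 8.13% held one. The ISRE core was found in 0 of 9 members and in 3.46% of all symbols, and a strict kappa B decamer in 0 of 9 and in 0.414%. GAS or the ISRE core was found in 1 of 9 members, in 10 of 11 interferon regulators and GTPases with a window, and in 11.1% of all symbols. 2 further patterns were searched after the values were seen. The degenerate kappa B site stood in *Casp4* and *Nlrp3* and in 8.23% of all symbols, and the TATA hexamer in *Il1b* and *Il18* and in 14.3%. A match is a description of the letters and not of binding.

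*Il1b* encodes interleukin 1 beta, the fever cytokine whose precursor caspase 1 cuts. It was the only member called higher with all 8 libraries. AAV2-shCX36 libraries 1 to 4 had 8.71, 3.52, 3.31 and 5.95 FPKM (627, 250, 231 and 422 fragments), against 1.00, 1.14, 0.182 and 0.109 FPKM (72, 77, 13 and 8 fragments) in AAV2-scramble libraries 1 to 4. The groups did not overlap: the lowest AAV2-shCX36 library stood well above the highest control, and AAV2-scramble 3 and 4 were lower than AAV2-scramble 1 and 2. The means were 5.37 ± 2.53 FPKM with AAV2-shCX36 and 0.608 ± 0.538 FPKM with AAV2-scramble (SD, n = 4 each), an 8.84-fold ratio. On the log2(FPKM + 1) scale, which understates the change of low genes, the difference was 1.97 ± 0.31 (SE, limma adjusted p = 0.0132). Of the 12858 genes averaging at least 1 FPKM, 2.24% were called higher at an adjusted p under 0.05 and 2.52% lower. Only 3 members were in that fit (*Il1b*, *Il18* and *Gsdmd*), and *Il1b* passed its filter only through the AAV2-shCX36 libraries, so a count over the 3 says nothing about the 10. Bulk libraries cannot tell more cells carrying *Il1b* RNA from more *Il1b* RNA per cell.

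With no filter, all 10 members were tested among the 24860 symbols, *Il1b* was the one called (limma adjusted p = 0.0424), and 0.712% of symbols were called higher. A fit on fragment counts recovered from the FPKM (limma-voom, 17257 genes with a mean of at least 10 fragments) also held all 10. There *Il1b* had a log2 difference of 3.67 ± 0.82 in depth-scaled fragments (12.8-fold, limma-voom adjusted p = 0.0443), with 1.53% of genes called higher and 1.63% lower, and none of the other 9 members was called in either direction. *Casp4*, *Ripk3* and *Mlkl* had an unadjusted p under 0.05 there, all higher, as had *Il1b* and 11.5% of all genes tested. The median difference over all genes was 0.03 in that fit and 0.27 over the 10 members. The call held in limma on FPKM when any 1 of the 8 libraries was left out (adjusted p of 0.0157 to 0.0426). It was lost in limma-voom without any 1 of them (adjusted p of 0.0505 to 0.110), and in limma without AAV2-shCX36 1 and 4 together, the libraries with the most lens transcripts (log2 difference 1.52, adjusted p = 0.108). In limma-voom the difference was 5.08 against AAV2-scramble 3 and 4 alone (adjusted p = 0.0665) and 2.21 against AAV2-scramble 1 and 2 alone (adjusted p = 0.0265). *Il1b* lies on chromosome 2 at 129364570 to 129371139, minus strand (GRCm38, GENCODE), where the antisense gene *Il1bos* overlaps it. No source used here says whether counting was stranded, so reads of the pair cannot be told apart.

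*Il18* encodes interleukin 18, which drives interferon gamma release from lymphocytes. It had 4.45, 3.33, 4.56 and 3.81 FPKM in AAV2-shCX36 libraries 1 to 4, against 5.17, 6.20, 2.99 and 3.16 FPKM in AAV2-scramble libraries 1 to 4. All AAV2-shCX36 libraries fell between the 2 pairs of controls, AAV2-scramble 1 and 2 above them and 3 and 4 below. The difference was -0.06 ± 0.20 on the log2(FPKM + 1) scale (limma adjusted p = 0.895). It was 0.30 without AAV2-scramble 1 and 2 (limma adjusted p = 0.185) and -0.41 without AAV2-scramble 3 and 4 (limma adjusted p = 0.0483). *Il18* (chromosome 9, 50554827 to 50581840, plus strand) overlaps *Bco2* and *Tex12* on the other strand.

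*Nlrp3* encodes the sensor for potassium loss and membrane damage. It had 0.624, 0.464, 0.464 and 0.555 FPKM in AAV2-shCX36 libraries 1 to 4, against 1.85, 2.17, 0.654 and 0.390 FPKM in AAV2-scramble libraries 1 to 4. The AAV2-shCX36 libraries were even and near AAV2-scramble 3 and 4, while AAV2-scramble 1 and 2 were the 2 high libraries. With a mean of 0.527 ± 0.0779 FPKM with AAV2-shCX36 and 1.27 ± 0.875 FPKM with AAV2-scramble (SD, n = 4 each), *Nlrp3* did not pass a two-sided exact permutation test over the 70 relabellings (p = 0.229, log2 difference -0.49), whose smallest p is 0.0286. Without AAV2-scramble 4 it did (exact permutation p = 0.0286, log2 difference -0.69). In limma-voom the difference was -0.92 ± 0.59 (adjusted p = 0.415). It was 0.05 without AAV2-scramble 1 and 2 (limma-voom adjusted p = 0.949) and -1.93 without AAV2-scramble 3 and 4 (adjusted p = 0.00064). The gene lies on chromosome 11 at 59541568 to 59566956, plus strand.

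*Pycard*, also called ASC, encodes the adaptor that joins sensor and caspase. It had 0.885, 0.848, 1.17 and 1.36 FPKM in AAV2-shCX36 libraries 1 to 4, against 1.45, 1.25, 0.445 and 0.565 FPKM in AAV2-scramble libraries 1 to 4. The groups overlapped, and the AAV2-shCX36 libraries again lay mostly between the pairs of controls (exact permutation p = 0.571, log2 difference 0.13). In limma-voom, leaving out AAV2-scramble 1 and 2 gave 1.05 (adjusted p = 0.200) and leaving out AAV2-scramble 3 and 4 gave -0.37 (adjusted p = 0.427). *Pycard* is on chromosome 7 at 127989708 to 127993867, minus strand.

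*Casp1* encodes caspase 1, the protease of the canonical inflammasome. It had 0.902, 0.668, 0.465 and 0.827 FPKM in AAV2-shCX36 libraries 1 to 4, against 1.62, 1.81, 0.331 and 0.322 FPKM in AAV2-scramble libraries 1 to 4. Every AAV2-shCX36 library lay between the pairs of controls (exact permutation p = 0.60, log2 difference -0.15). The limma-voom difference of -0.08 ± 0.64 was 1.07 without AAV2-scramble 1 and 2 (adjusted p = 0.336) and -1.28 without AAV2-scramble 3 and 4 (adjusted p = 0.0306). *Casp1* (5298517 to 5307265) and *Casp4* (5308828 to 5336783) are neighbours on the plus strand of chromosome 9.

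*Casp4* encodes the protease of the non-canonical route. It had 0.863, 0.679, 1.02 and 0.929 FPKM in AAV2-shCX36 libraries 1 to 4 (49, 38, 56 and 52 fragments), against 0.619, 0.655, 0.266 and 0.0345 FPKM in AAV2-scramble libraries 1 to 4 (35, 35, 15 and 2 fragments). The groups did not overlap, but AAV2-scramble 2 came within 3 fragments of AAV2-shCX36 2. *Casp4* and *Il1b* were the only 2 of the 10 members with every AAV2-shCX36 library above every control, a pattern found in 8.08% of genes with a mean of at least 10 fragments. The means were 0.872 ± 0.143 FPKM with AAV2-shCX36 and 0.393 ± 0.297 FPKM with AAV2-scramble (SD, n = 4 each). *Casp4* reached the smallest p of the exact permutation test (p = 0.0286, log2 difference 0.45) but was not called across all genes (limma without filter, adjusted p = 0.219; limma-voom 1.74 ± 0.72, adjusted p = 0.217). The exact permutation p stayed at 0.0286 without AAV2-scramble 1, 2 or 3, and was 0.0571 to 0.114 without any 1 of the other 5 libraries. The limma-voom difference was 0.43 against AAV2-scramble 1 and 2 alone (adjusted p = 0.517) and 3.01 against AAV2-scramble 3 and 4 alone (adjusted p = 0.0893).

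*Gsdmd* encodes gasdermin D, whose cut end forms the pore of pyroptosis. It had 2.84, 1.62, 2.90 and 2.21 FPKM in AAV2-shCX36 libraries 1 to 4, against 4.12, 5.004, 3.39 and 1.33 FPKM in AAV2-scramble libraries 1 to 4. Only AAV2-scramble 4 lay below the AAV2-shCX36 libraries, and the other 3 controls lay above them. The difference was -0.33 on the log2(FPKM + 1) scale (limma adjusted p = 0.510), 0.07 without AAV2-scramble 1 and 2 (adjusted p = 0.906) and -0.73 without AAV2-scramble 3 and 4 (adjusted p = 0.0203). *Gsdmd* is on chromosome 15 at 75862327 to 75867408, plus strand.

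*Ripk1* encodes the kinase at the branch between survival signalling, apoptosis and necroptosis. It had 0.7995, 0.721, 0.783 and 0.875 FPKM in AAV2-shCX36 libraries 1 to 4, against 1.00, 0.987, 0.584 and 0.418 FPKM in AAV2-scramble libraries 1 to 4. Its AAV2-shCX36 libraries were the most even of any member relative to their mean and lay between the pairs of controls (exact permutation p = 0.686, log2 difference 0.05). These low FPKM rest on 270 to 632 fragments a library, because the length the authors' values imply for *Ripk1*, 16571 bases, is long. In limma-voom the difference was 0.19 ± 0.26 with all libraries, 0.68 without AAV2-scramble 1 and 2 (adjusted p = 0.0603) and -0.33 without AAV2-scramble 3 and 4 (adjusted p = 0.0977). *Ripk1* (chromosome 13, 34002363 to 34037147, plus strand) overlaps *Serpinb6a* on the other strand.

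*Ripk3* encodes the kinase that phosphorylates MLKL. It had 0.427, 0.244, 0.151 and 0.325 FPKM in AAV2-shCX36 libraries 1 to 4 (32, 18, 11 and 24 fragments), against 0, 0.170, 0.0134 and 0.0131 FPKM in AAV2-scramble libraries 1 to 4 (0, 12, 1 and 1 fragments). AAV2-scramble 2 was above AAV2-shCX36 3, and the other 3 controls had at most 1 fragment. The 0 in AAV2-scramble 1 allows up to 0.0402 FPKM (3 fragments, for counting error only). The exact permutation p was 0.0571 (log2 difference 0.29), and limma-voom gave 3.42 ± 1.02 (adjusted p = 0.107), 3.80 without AAV2-scramble 1 and 2 (adjusted p = 0.134) and 3.04 without AAV2-scramble 3 and 4 (adjusted p = 0.129). *Ripk3* passed the minimum of 10 fragments only through the AAV2-shCX36 libraries, and it lies on chromosome 14 at 55784995 to 55788865, minus strand.

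*Mlkl* encodes the pseudokinase that permeabilises the membrane. It had 0.913, 0.427, 0.314 and 0.481 FPKM in AAV2-shCX36 libraries 1 to 4 (102, 47, 34 and 53 fragments), against 0.314, 0.209, 0 and 0.0700 FPKM in AAV2-scramble libraries 1 to 4 (35, 22, 0 and 8 fragments). AAV2-shCX36 3 and AAV2-scramble 1 were within 1 fragment of each other, so the groups overlapped by that one pair. The 0 in AAV2-scramble 3 allows up to 0.0270 FPKM (3 fragments). The exact permutation p was 0.0571 (log2 difference 0.41), and limma-voom gave 2.87 ± 1.05 (adjusted p = 0.170). After median-of-ratios scaling or rescaling to TPM the groups no longer overlapped, and the exact permutation p was 0.0286, as it was without AAV2-shCX36 3. The limma-voom difference was 4.75 against AAV2-scramble 3 and 4 alone (adjusted p = 0.102) and 0.93 against AAV2-scramble 1 and 2 alone (adjusted p = 0.288). *Mlkl* is on chromosome 8 at 111311797 to 111338177, minus strand.

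**Figure D1:**
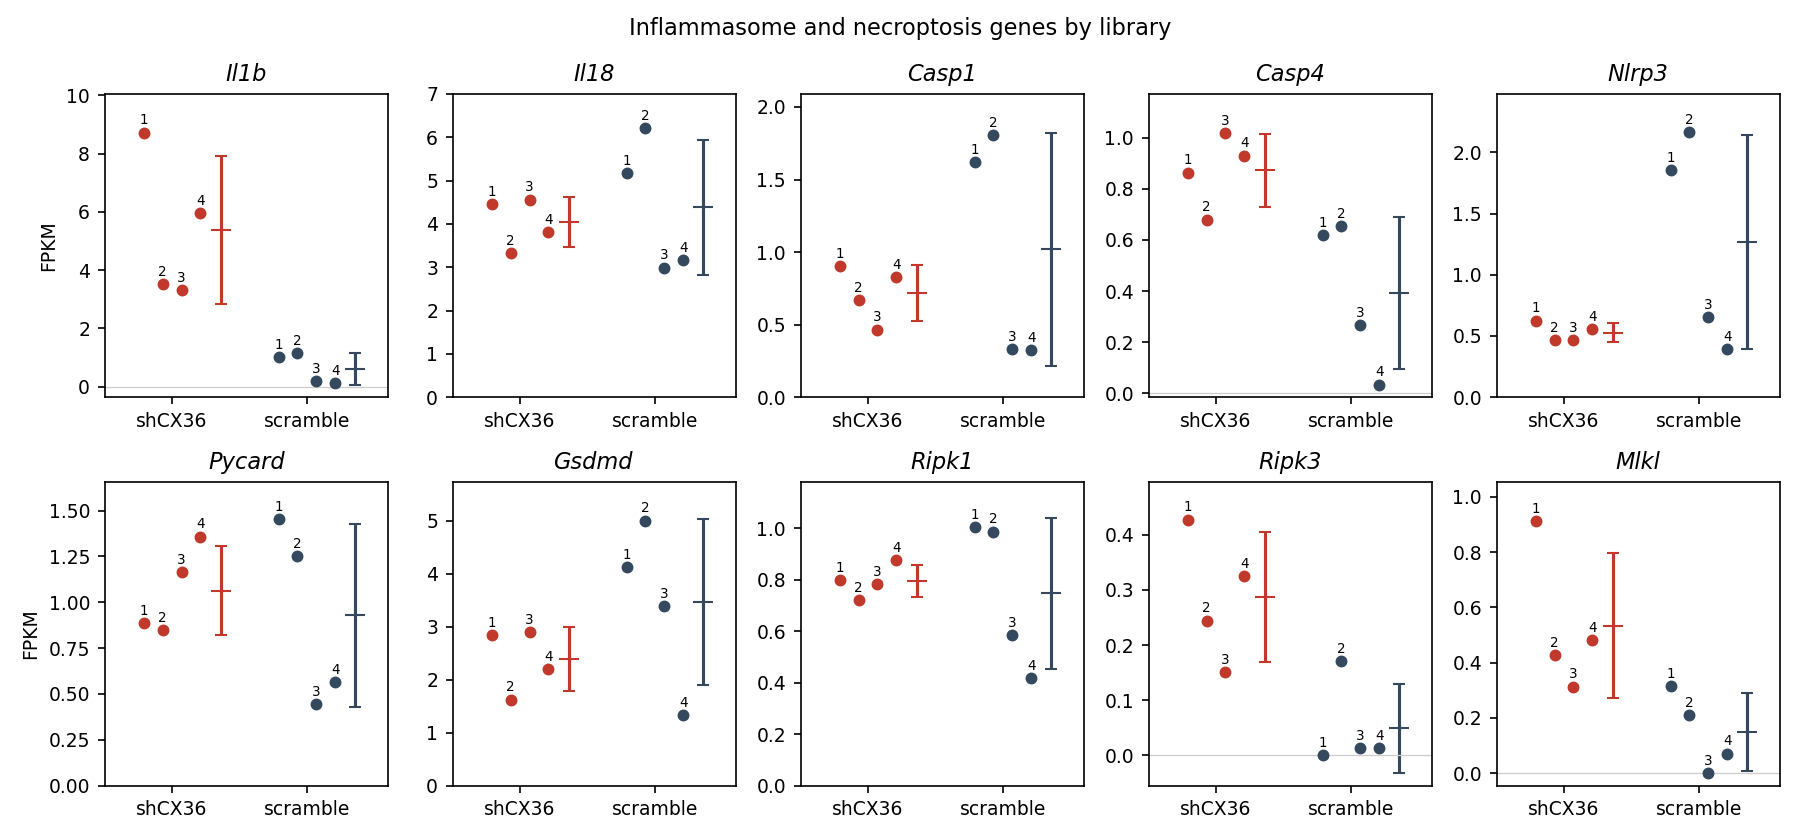
FPKM of the 10 genes in each library (points, numbered by library) with the group mean and SD beside them, 4 AAV2-shCX36 libraries (red) and 4 AAV2-scramble libraries (blue) per panel, each panel on its own linear axis. *Il1b* and *Casp4* are the panels in which no AAV2-shCX36 point lies at or below a control, and in *Nlrp3*, *Casp1*, *Il18*, *Gsdmd* and *Ripk1* AAV2-scramble 1 and 2 lie above all other libraries.

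With AAV2-scramble 3 and 4 left out, 4 members were called lower in limma (*Il18*, *Casp1*, *Nlrp3* and *Gsdmd*) and 3 in limma-voom (*Casp1*, *Nlrp3* and *Gsdmd*). In those fits 14.8% of all genes in limma and 13.9% in limma-voom were called lower, so falls were common among all genes there. The limma fit held 6 members, and *Casp1* and *Nlrp3* entered it only through AAV2-scramble 1 and 2, where they are high, so its count supports nothing, while limma-voom held the same 10 as with all libraries. With AAV2-scramble 1 and 2 left out, none of the 10 was called lower, and *Il1b* was higher at a log2 difference of 2.40 (limma adjusted p = 0.00541). The controls of both pairs carry the same label, and nothing in the labels marks one pair as the better control.

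**Figure D2:**
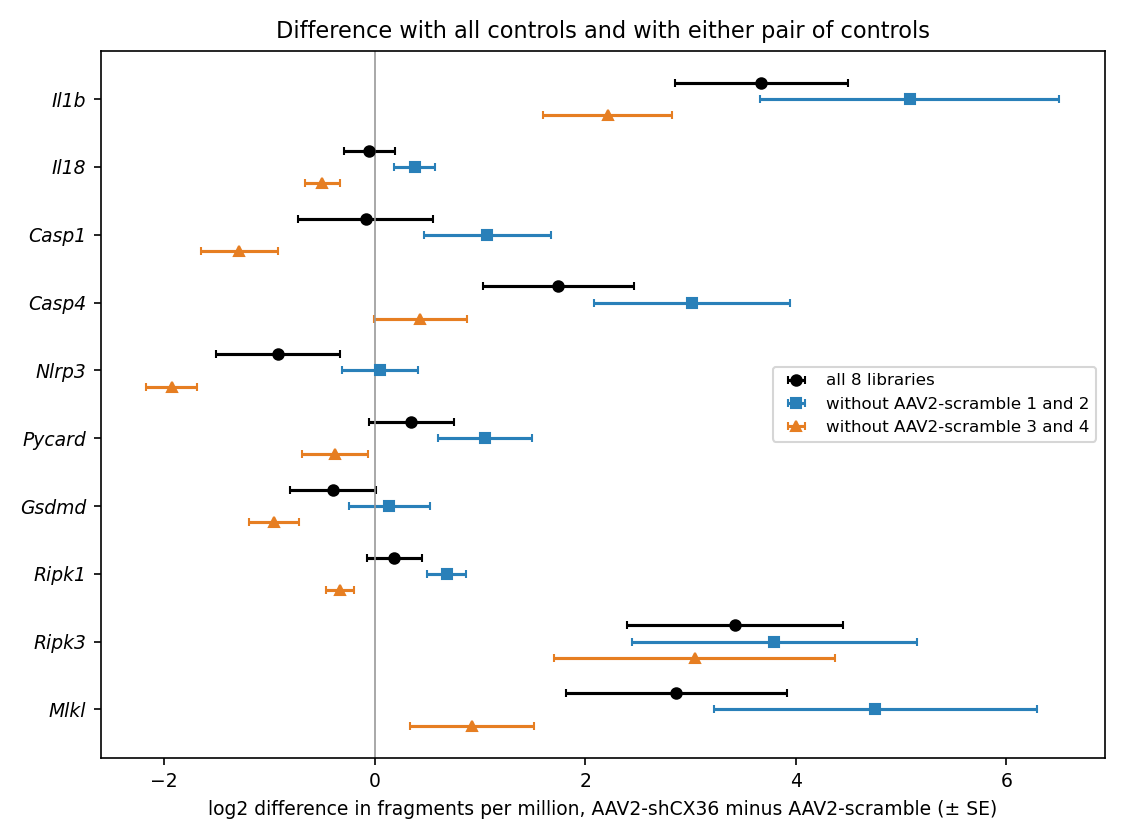
Log2 difference in depth-scaled fragments, AAV2-shCX36 minus AAV2-scramble, with its SE for each gene in limma-voom, with all 8 libraries (black circles), without AAV2-scramble 1 and 2 (blue squares) and without AAV2-scramble 3 and 4 (orange triangles). *Il1b*, *Casp4*, *Ripk3* and *Mlkl* lie right of 0 with any set of controls, while the sign for *Il18*, *Casp1*, *Nlrp3*, *Pycard*, *Gsdmd* and *Ripk1* depends on it.

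FPKM is a level per length, so the members can be ordered by it. The place of *Ripk1* rests on the long length its values imply, which may take in more than the usual transcript, and its count may include reads of neighbours. In AAV2-shCX36 libraries the order of the means was *Il1b* (5.37 FPKM), *Il18* (4.04), *Gsdmd* (2.39), *Pycard* (1.06), *Casp4* (0.872), *Ripk1* (0.795), *Casp1* (0.715), *Mlkl* (0.534), *Nlrp3* (0.527) and *Ripk3* (0.287). Neighbours in that order overlapped between libraries except *Il18* with *Gsdmd*, *Gsdmd* with *Pycard* and *Nlrp3* with *Ripk3*. In AAV2-scramble libraries the order was *Il18* (4.38 FPKM), *Gsdmd* (3.46), *Nlrp3* (1.27), *Casp1* (1.02), *Pycard* (0.929), *Ripk1* (0.748), *Il1b* (0.608), *Casp4* (0.393), *Mlkl* (0.148) and *Ripk3* (0.0492). There every pair of neighbours overlapped between libraries.

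The members were set beside the microglial marker level, since microglia express most of them. All 10 microglial markers had a lower mean with AAV2-shCX36, 1 of them called lower in limma, with a median log2(FPKM + 1) difference of -1.01 against 0.01 over all genes. *C1qa*, a complement subunit made by microglia and one of the markers with the highest level, was at 62.3 ± 13.5 FPKM with AAV2-shCX36 and 106 ± 59.4 FPKM with AAV2-scramble (SD, n = 4 each). Per 1000 FPKM of summed microglial markers, a ratio chosen after the values were seen and given with no test, *Nlrp3* covered the same range in both groups, 1.29 to 2.27 FPKM with AAV2-shCX36 and 1.28 to 2.29 FPKM with AAV2-scramble. *Il1b* did not, at 12.1 to 31.7 FPKM with AAV2-shCX36 and 0.356 to 1.20 FPKM with AAV2-scramble. The ranges were also apart for *Casp4*, at 2.16 to 3.72 FPKM with AAV2-shCX36 and 0.151 to 0.692 FPKM with AAV2-scramble, and for *Mlkl*, at 1.12 to 3.32 FPKM with AAV2-shCX36 and 0 to 0.315 FPKM with AAV2-scramble. *Ripk3* had 0.553 to 1.56 FPKM with AAV2-shCX36 and 0 to 0.180 FPKM with AAV2-scramble on this measure. *Pycard* (3.06 to 4.26 FPKM with AAV2-shCX36 and 0.873 to 2.48 FPKM with AAV2-scramble) and *Ripk1* (2.04 to 2.91 FPKM with AAV2-shCX36 and 1.01 to 1.84 FPKM with AAV2-scramble) were apart as well. They overlapped for *Casp1*, *Gsdmd* and *Il18*. On this ratio 6 of the 10 members had every AAV2-shCX36 library above every control, as had 6.78% of the 17257 genes of the limma-voom fit. The divisor itself was 274 to 430 FPKM with AAV2-shCX36 and 228 to 997 FPKM with AAV2-scramble. The part of the microglial level in these results was not tested.

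**Figure D3:**
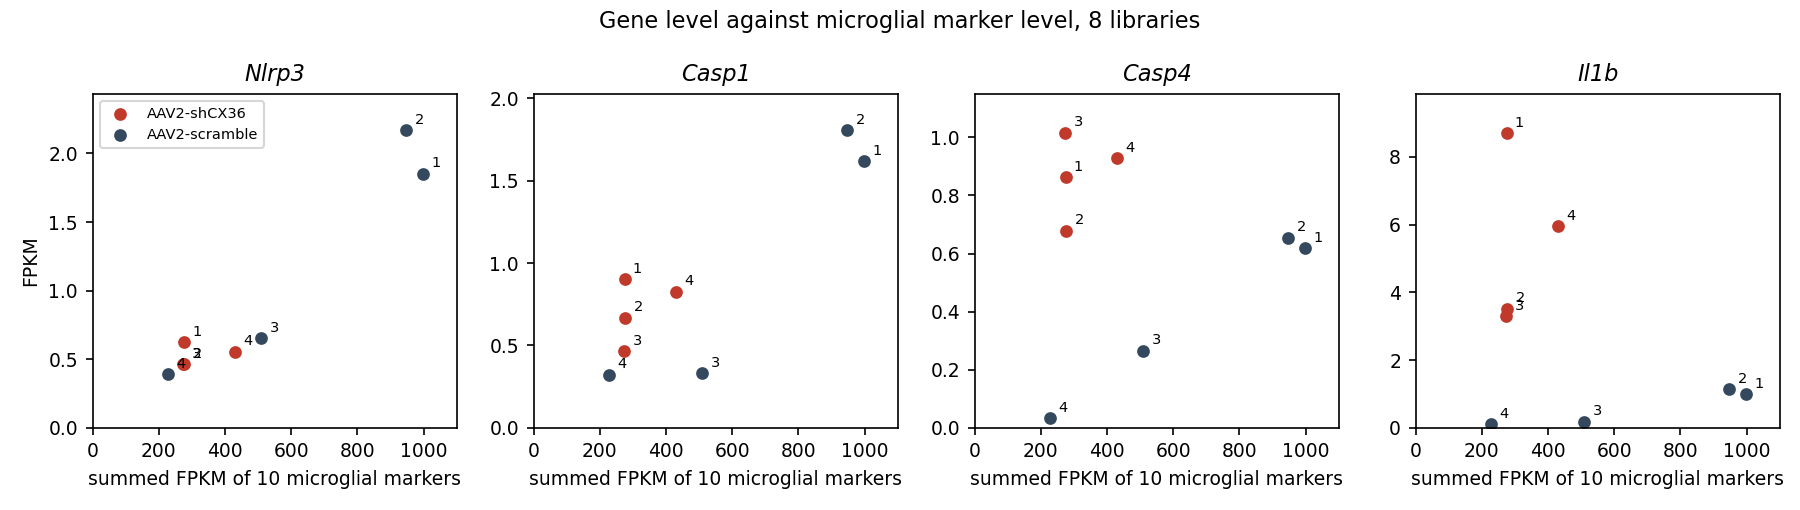
FPKM of *Nlrp3*, *Casp1*, *Casp4* and *Il1b* (vertical axes) against the summed FPKM of 10 microglial markers (horizontal axes), 1 point per library numbered as in the labels, AAV2-shCX36 red and AAV2-scramble blue. *Nlrp3* is high only where the microglial sum is 947 and 997 FPKM, while *Il1b* is highest in AAV2-shCX36 libraries, at sums of 274 to 430 FPKM.

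Transcripts of blood leukocytes were low, and the summed T and NK cell markers were, like *Il1b*, higher in every AAV2-shCX36 library than in any control. The 7 T and NK cell markers in the table summed to 1.26 to 4.14 FPKM with AAV2-shCX36 and 0.148 to 0.301 FPKM with AAV2-scramble, and 5 of the 7 (*Cd3e*, *Cd3g*, *Nkg7*, *Gzmb* and *Ifng*) were at 0 in every AAV2-scramble library. *Gzmb*, granzyme B, had 55, 20, 13 and 75 fragments in AAV2-shCX36 libraries 1 to 4, and *Nkg7* had 30, 33, 12 and 11. The 6 neutrophil markers in the table, among them *S100a8* and *S100a9*, summed to 0.176 to 1.39 FPKM with AAV2-shCX36 and 0 to 0.269 FPKM with AAV2-scramble. The 10 monocyte and macrophage markers overlapped, at 41.8 to 53.4 FPKM with AAV2-shCX36 and 35.9 to 77.4 FPKM with AAV2-scramble, mostly from *Lyz2* and *Itgam*, and 7 of the 10 had a lower mean with AAV2-shCX36. Among the other 3 was *Ly6c2* of inflammatory monocytes, singled out for its values and so given with no test, which had 148, 66, 122 and 77 fragments in AAV2-shCX36 libraries 1 to 4, against 1, 5, 1 and 0 in AAV2-scramble libraries 1 to 4. Of the monocyte and macrophage markers, 1 of 5 tested was called higher in limma and 2 of 10 in limma-voom, and none lower. *Ly6c2* reached the minimum of 10 fragments only through the AAV2-shCX36 libraries, so these counts are a description only. Of 4 T and NK cell markers tested in limma-voom, 2 were called higher. *Gzmb* and *Nkg7* reached its minimum of 10 fragments only through the AAV2-shCX36 libraries, so this count supports nothing. Over all genes, 2.24% were called higher in limma and 1.53% in limma-voom. The 6 lens markers summed to 149, 13.4, 20.9 and 322 FPKM in AAV2-shCX36 libraries 1 to 4 and to 0.388 to 15.2 FPKM with AAV2-scramble, and *Il1b*, *Ripk3* and *Mlkl* were highest in AAV2-shCX36 1 and 4. The part of these cells in the *Il1b* result was not tested.

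The other genes of the routes were described by the same fit, and rose or fell here means called higher or lower. In limma 2.24% of all genes rose and 2.52% fell. Among inflammasome sensors and adaptors outside the members, 5 of 15 were tested in limma, none rose and 1 fell, with 1 higher at an unadjusted p under 0.05 (*Ifi204*, a DNA sensor, limma adjusted p = 0.0623) and none rising in limma-voom. The gene that fell was *Nek7*, the kinase that licenses NLRP3, at 9.04 ± 0.760 FPKM with AAV2-shCX36 and 11.9 ± 0.754 FPKM with AAV2-scramble (SD, n = 4 each; log2 difference -0.36, limma adjusted p = 0.0348). It passed in only 1 of 8 fits with a library left out, with adjusted p up to 0.102. The sensor of pyrin inflammasomes, *Mefv*, outside the naming rule, had 19, 8, 12 and 6 fragments in AAV2-shCX36 libraries 1 to 4 and 0 in each AAV2-scramble library. None of the 8 tested caspases and gasdermins of 11 listed was called in limma or limma-voom, and 1 had an unadjusted p under 0.05 in limma, against 4 of 10 in limma-voom. Of those in limma-voom, 3 were higher and 1 lower, and 11.5% of all genes were higher at that level.

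Of 15 receptors, inhibitors, relatives and downstream signalling genes of interleukins 1 and 18, 6 were tested, 1 rose and none fell. Over all genes in limma, 2.24% rose and 2.52% fell. *Il18bp*, the secreted decoy that binds interleukin 18, had 3.52, 2.74, 2.49 and 2.64 FPKM in AAV2-shCX36 libraries 1 to 4, against 1.73, 1.94, 1.21 and 1.51 FPKM in AAV2-scramble libraries 1 to 4 (log2 difference 0.57 ± 0.13, limma adjusted p = 0.0392). All 4 AAV2-shCX36 libraries were above all controls, a pattern found in 8.08% of genes with a mean of at least 10 fragments. The call passed in only 2 of 8 fits with a library left out, with limma adjusted p up to 0.111. *Il1rn*, the natural antagonist of the interleukin 1 receptor, was under the FPKM filter and is named after its values were seen. It had 212, 50, 77 and 70 fragments in AAV2-shCX36 libraries 1 to 4, against 9, 2, 4 and 12 in AAV2-scramble libraries 1 to 4 (limma-voom 3.85 ± 0.97, adjusted p = 0.0643). None of the 8 tested genes of priming and ATP signalling of 10 listed, such as *Tlr2*, *P2rx7* and *Panx1*, was called in limma or limma-voom, and 0 had an unadjusted p under 0.05.

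Of 18 other necroptosis genes and brakes, 16 were tested in limma, 1 rose and 1 fell, beside 2.24% and 2.52% of all genes. *Zbp1*, the sensor of Z-form nucleic acids that binds RIPK3, had 9.43, 4.36, 7.37 and 3.98 FPKM in AAV2-shCX36 libraries 1 to 4 and 0.986, 0.580, 0.122 and 0.321 FPKM in AAV2-scramble libraries 1 to 4. Its groups were far apart (log2 difference 2.24 ± 0.26, limma adjusted p = 0.00361; limma-voom 3.91 ± 0.74, adjusted p = 0.0261). It was called in all 8 limma fits with a library left out and in 4 of 8 in limma-voom, with limma-voom adjusted p up to 0.0662. *Zbp1* passed the filter of 1 FPKM only through the AAV2-shCX36 libraries, so its limma calls are a description only. Its controls, at 81, 45, 10 and 27 fragments, reached the minimum of 10 fragments for limma-voom by themselves. *Tnfaip3*, also called A20, a ubiquitin-editing enzyme that restrains NF-kB signalling and RIPK3, had 10.01, 8.10, 9.46 and 9.05 FPKM in AAV2-shCX36 libraries 1 to 4 and 15.0, 17.5, 16.7 and 17.3 FPKM in AAV2-scramble libraries 1 to 4. All 4 controls lay above all AAV2-shCX36 libraries (log2 difference -0.80 ± 0.08, limma adjusted p = 0.00168), and the call held in all 8 fits with a library left out, in limma and in limma-voom. None of 8 membrane repair genes of the ESCRT complex, which can remove pores of gasdermin D and MLKL, was called in limma or limma-voom, and 3 had an unadjusted p under 0.05 in limma, all higher. In limma-voom 2 had, both higher, as had 11.5% of all genes tested there. *Chmp3*, with the smallest, had 21.1 ± 0.466 FPKM with AAV2-shCX36 and 17.7 ± 2.67 FPKM with AAV2-scramble (limma adjusted p = 0.178).

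Interferon regulators and the GTPases linked to the inflammasome held more calls than the other lists. All of these lists were chosen with earlier results of these data known. All 12 genes of the interferon list were tested, 10 rose in limma and 8 in limma-voom, and none fell. Over all genes, 2.24% rose in limma and 1.53% in limma-voom. The median limma difference was 2.12 in the list, against 0.01 over all genes. *Gbp5* and *Gbp7*, at least, passed the filter of 1 FPKM only through the AAV2-shCX36 libraries, so the limma count is a description only. *Irgm1*, whose ISRE cores are printed above, had 30.1 ± 10.2 FPKM with AAV2-shCX36 and 2.87 ± 1.37 FPKM with AAV2-scramble (limma adjusted p = 0.00162). *Gbp7*, a guanylate-binding protein, had 14.2 ± 4.70 FPKM with AAV2-shCX36 and 0.985 ± 0.749 FPKM with AAV2-scramble (limma adjusted p = 0.00215), and *Irf9*, the DNA-binding part of the interferon-stimulated factor, had 31.2 ± 6.59 FPKM with AAV2-shCX36 and 8.59 ± 2.18 FPKM with AAV2-scramble (limma adjusted p = 0.00238; SD, n = 4 each). These 3 were called with any 1 library left out, in limma and in limma-voom.

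**Figure D4:**
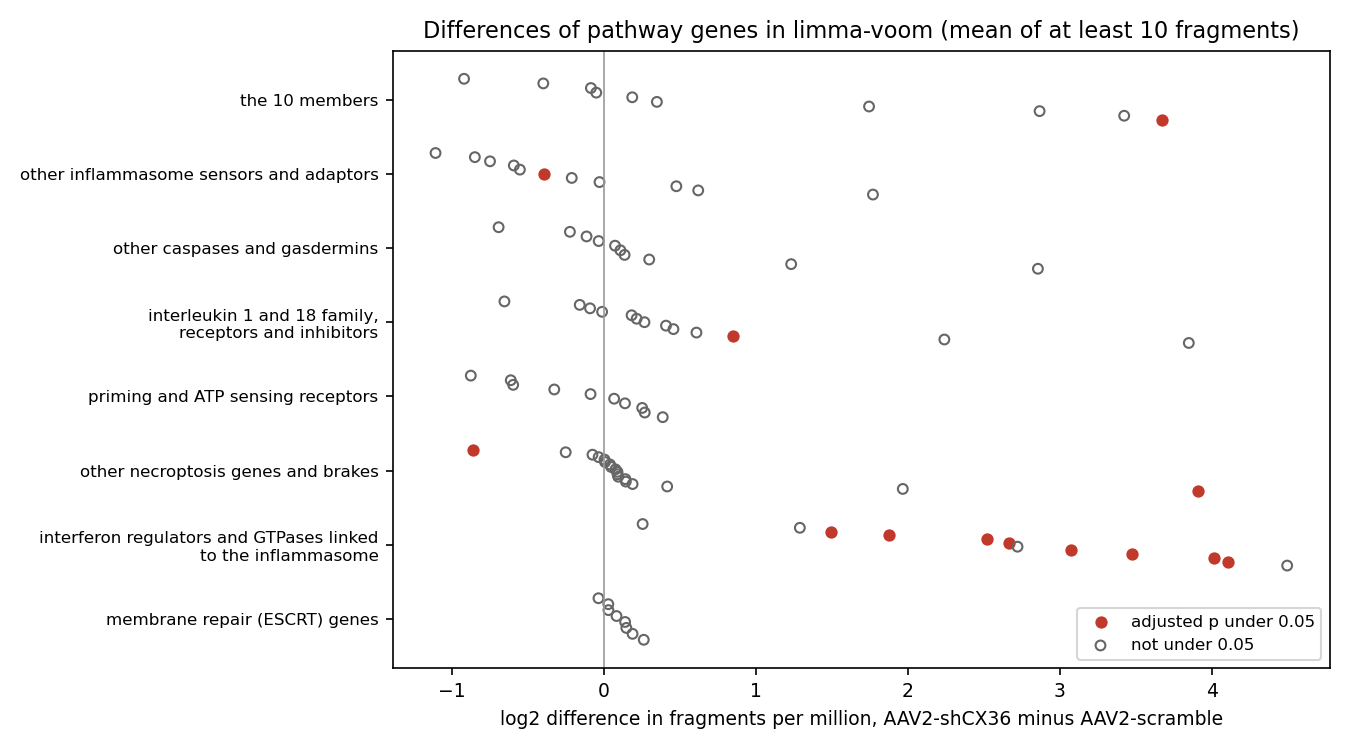
Log2 difference in depth-scaled fragments, AAV2-shCX36 minus AAV2-scramble, for each gene of the 10 members and of 7 other lists in limma-voom, 1 point per gene with a mean of at least 10 fragments, filled red where the adjusted p was under 0.05. Most points of the interferon list lie right of 1, while 1 point of the members is filled.

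The 3 tested genes whose log2(FPKM + 1) pattern over the 8 libraries was most like that of *Il1b*, unnamed gene models passed over, were *H2-Ab1* (Pearson r = 0.988), *Nup93* (r = 0.984) and *Gbp4* (r = 0.981), given as a description. *H2-Ab1*, a chain of class II major histocompatibility molecules, had 34.6 ± 17.2 FPKM with AAV2-shCX36 and 3.09 ± 1.72 FPKM with AAV2-scramble (SD, n = 4 each). *Nup93*, a nuclear pore protein, had 3.89 ± 0.275 FPKM with AAV2-shCX36 and 2.95 ± 0.165 FPKM with AAV2-scramble, and *Gbp4*, a guanylate-binding protein, had 5.99 ± 3.59 FPKM with AAV2-shCX36 and 0.677 ± 0.580 FPKM with AAV2-scramble. The libraries of a group share their label, so any gene that separates the groups correlates with *Il1b*.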

How the data were processed

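Per the labels' protocols, total RNA for the 8 retina libraries came from a QIAGEN RNeasy Micro Kit and was read as paired ends. The submitters' processing notes name fastp, HISAT2, HTSeq, R 3.2.0, DESeq2 and the builds GRCm38 and mm10, without roles. Values are FPKM deposited by the authors, 24860 symbols by 8 libraries, with 0 unmatched value columns. The FPKM could be written as whole multiples of 1 fragment per gene and library (all 24860 genes within 0.02 fragment), so fragment counts, implied gene lengths and totals were recovered. A gene seen in few libraries meets this easily or always, so its recovered counts are less certain. The smallest whole lengths were reached directly for 23447 genes, and for the rest counts and length were multiplied until the length was whole. The recovered counts sum to 99.9% of each total.

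The main test was limma 3.58.1 in R 4.3.3 (lmFit, eBayes with trend) on log2(FPKM + 1). It covered 12858 genes whose mean across libraries reached 1 FPKM, called at a Benjamini-Hochberg adjusted p under 0.05. Members under that filter got an exact two-sided permutation test (70 relabellings). limma-voom on the recovered counts (17257 genes, mean of at least 10 fragments) was added after the data were seen. SDs are over 4 libraries.

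The members, gene lists and pairs of libraries left out were chosen with earlier results of these data known. The naming rule took all 10 members; every called gene of another list, or the 4 with the smallest p where more were called; otherwise the gene with the smallest p if under 0.05; the 2 highest genes of each marker list described; and the 3 genes most correlated with a called member. *Ly6c2*, *Mefv*, *Il1rn* and the other genes given as examples stand outside it. Some genes the rule takes are not reported here.

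Simulated data with 50 genes changed at each size were used to test both fits of AAV2-shCX36 minus AAV2-scramble. At changes of 1.5-, 2-, 4- and 8-fold, limma on 12858 genes recovered 68%, 92%, 98% and 100%, and 14 of its 193 calls were unchanged genes. limma-voom on 17257 genes recovered 36%, 64%, 84% and 92%, and 5 of its 143 calls were unchanged genes. Changes were placed only in genes above a set level, which *Il18* alone of the members reached for limma and all but *Ripk3* for limma-voom. Spread was drawn for each gene alone, without the split between the pairs of controls. These rates therefore do not describe the members. Alternatives were pseudocounts of 0.1 and 0.5, 3 other scalings, no filter, a filter of 5 FPKM, 2 other variance models, the replicate number as a block, and libraries left out singly and in pairs. Figures were drawn with matplotlib 3.10.9 in Python 3.11.15.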

Additional observations from a re-analysis of the deposited data

Results flagged for a closer look

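1 result met a rule for a closer look. *Ripk3* in the AAV2-scramble libraries had 1 library far from the others: AAV2-scramble 2 had 0.170 FPKM (12 fragments), while the other 3 had 0, 0.0134 and 0.0131 FPKM (0, 1 and 1 fragments). Its gap to the nearest library, as a share of the group's range, was 0.921, above Dixon's critical value for 4 libraries. 20 groups (10 genes in 2 groups) were looked at, and chance flags about 1 in 20. With fragment numbers this small, the 3 low libraries cannot be told from each other.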

How the results depend on the processing

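Genes called higher and lower, 288 and 324 in limma on all libraries, numbered 177 and 134 with no filter, 1542 and 1914 against AAV2-scramble 1 and 2 alone, and 68 and 28 with AAV2-shCX36 1 and 4 left out. Against AAV2-scramble 3 and 4 alone, 565 were higher. Leaving out 1 library gave 96 to 575 higher and 70 to 591 lower. limma-voom, chosen after seeing the data, called 264 and 282 on all libraries, 1567 and 2393 against AAV2-scramble 1 and 2 alone, 524 higher against AAV2-scramble 3 and 4 alone, and 75 and 14 with AAV2-shCX36 1 and 4 left out. With the replicate number as a block, 107 were higher and 57 lower, and *Il1b* remained called (limma adjusted p = 0.0315). The numbers did not pair the libraries: same-number correlations were 0.128, -0.302, 0.226 and -0.269, and not every library correlated best with its own number.

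The count of members called higher, 1, was 0 under the 5 FPKM filter, where *Il1b* is not tested, without AAV2-shCX36 1 and 4 in either fit, and in limma-voom against AAV2-scramble 3 and 4 alone. The count of members called lower, 0, was 4 in limma, where the filter let in 6 members in place of 3, and 3 of 10 in limma-voom against AAV2-scramble 1 and 2 alone. Log2 differences that turned sign against AAV2-scramble 3 and 4 alone, first on log2(FPKM + 1) and then in limma-voom, were those of *Il18* (0.30 and 0.38), *Casp1* (0.36 and 1.07), *Nlrp3* (0.0085 and 0.055) and *Gsdmd* (0.066 and 0.14). Against AAV2-scramble 1 and 2 alone, *Pycard* (-0.20 and -0.37) and *Ripk1* (-0.15 and -0.33) turned. With 1 library left out, *Il18* ranged from -0.18 to 0.099, *Casp1* from -0.32 to 0.037 and *Ripk1* from -0.043 to 0.12. *Casp4* passed the exact permutation test in 3 of 8 such settings. The cause was not tested. Members with under 100 fragments carry wide counting errors.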

Other observations

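Some genes of these routes at low level, named after their values were seen, were not in the FPKM fit. They went both ways. *Naip5*, *Naip6*, *Aim2* and *Tlr4* had lower means with AAV2-shCX36, with overlapping groups. *Casp12*, *Il18r1* and *Il18rap* had more fragments in total with AAV2-shCX36. *Naip5* had 88, 97, 78 and 139 fragments with AAV2-shCX36, against 317, 339, 175 and 56 with AAV2-scramble, libraries 1 to 4 each. *Casp12*, the caspase next to *Casp1* and *Casp4* in their gene cluster, had 101, 31, 34 and 97 fragments in AAV2-shCX36 libraries 1 to 4, against 47, 41, 1 and 1 in AAV2-scramble libraries 1 to 4, and the groups overlapped (limma-voom 2.86 ± 1.15, adjusted p = 0.208). *Il18r1*, a chain of the interleukin 18 receptor, had 27 fragments in the AAV2-shCX36 libraries together and 0 in the AAV2-scramble libraries, while *Il18rap*, the other chain, had 95 with AAV2-shCX36 and 26 with AAV2-scramble.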
